A study of Homo sapiens with 6 samples.

Results

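Inositol synthesis and recycling genes were examined in HEK293T, a human cell line from embryonic kidney, by RNA sequencing of 3 libraries from untreated cells and 3 from cells given 1 mM valproic acid (VPA) for 1 day. VPA is an inhibitor of histone deacetylases and a mood stabilizer, and the inositol pathway is among its proposed targets. The genes described here are 10 genes of inositol synthesis, uptake and recycling, chosen by name for their place in this pathway: ISYNA1, IMPA1, IMPA2, INPP1, SLC5A3, SLC2A13, CDIPT, ITPK1, IPMK and IPPK. All 10 were found among the 47470 genes of the count files and all 10 passed the filter on low counts that 15298 genes passed. By the labels the groups differ in VPA alone. They rest on 1 cell line, and the study's methods speak of triplicate experiments without saying whether these were separate cultures.

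Inositol is made in the cell from glucose phosphate, is taken up from the medium by transporters, and is recovered when inositol phosphates lose their last phosphates. It returns to the membrane as phosphatidylinositol, from whose phosphorylated forms phospholipase C releases inositol trisphosphate and so begins a new round. Lithium, another mood stabilizer, inhibits phosphatases of the recovery steps, and lower inositol has been proposed as an action that lithium and VPA share. Inositol itself and the enzymes' activities were not measured here, and the values below are mRNA counts.

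Counts on genes lay between 18622267 and 18828495 in the 6 libraries, and normalized counts are counts scaled by TMM (trimmed mean of M-values) to the mean library. Libraries of a group differed by more than sampling noise. Of 7 genes that HEK293 cells are known to express, all 7 were counted in both groups. At an adjusted p under 0.05 (edgeR), 6 of them were higher after VPA and VIM lower, against 32.9% and 30.0% of all tested genes. Of 6 markers of blood, endothelial and liver cells, 5 were too low to be tested, with at most 5 counts in any library, and the 6 markers together summed to 35.6 to 38.8 normalized counts in untreated and 17.2 to 30.7 in VPA-treated libraries. The part of these shifts in the results was not tested.

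After VPA, 4 of the 10 genes were higher (IMPA2, INPP1, SLC2A13 and ITPK1) and 3 were lower (IMPA1, SLC5A3 and IPMK) at an adjusted p under 0.05 in edgeR's quasi-likelihood test, while ISYNA1, CDIPT and IPPK did not pass. Among all tested genes 32.9% were higher and 30.0% lower by the same rule, 62.9% in all, so that 7 of 10 is close to the share of any genes. None of the 10 genes reached the study's fold change threshold of 1 on the log2 scale, which 12.0% of all genes passed upwards and 0.503% downwards. The median change in size was 0.22 on the log2 scale in the 10 genes and 0.26 in all genes tested. The normalized counts of the groups did not overlap in the 7 genes that passed the test, 4 with VPA above and 3 with VPA below, where 34.8% and 31.0% of all tested genes, or 65.8% together, were so separated. With the replicate number as a block 5 genes were higher and 4 lower, against 35.0% and 33.3% of all genes, the added calls being CDIPT (adjusted p = 0.00211) and ISYNA1 (adjusted p = 0.0382, edgeR).

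**Figure D1:**
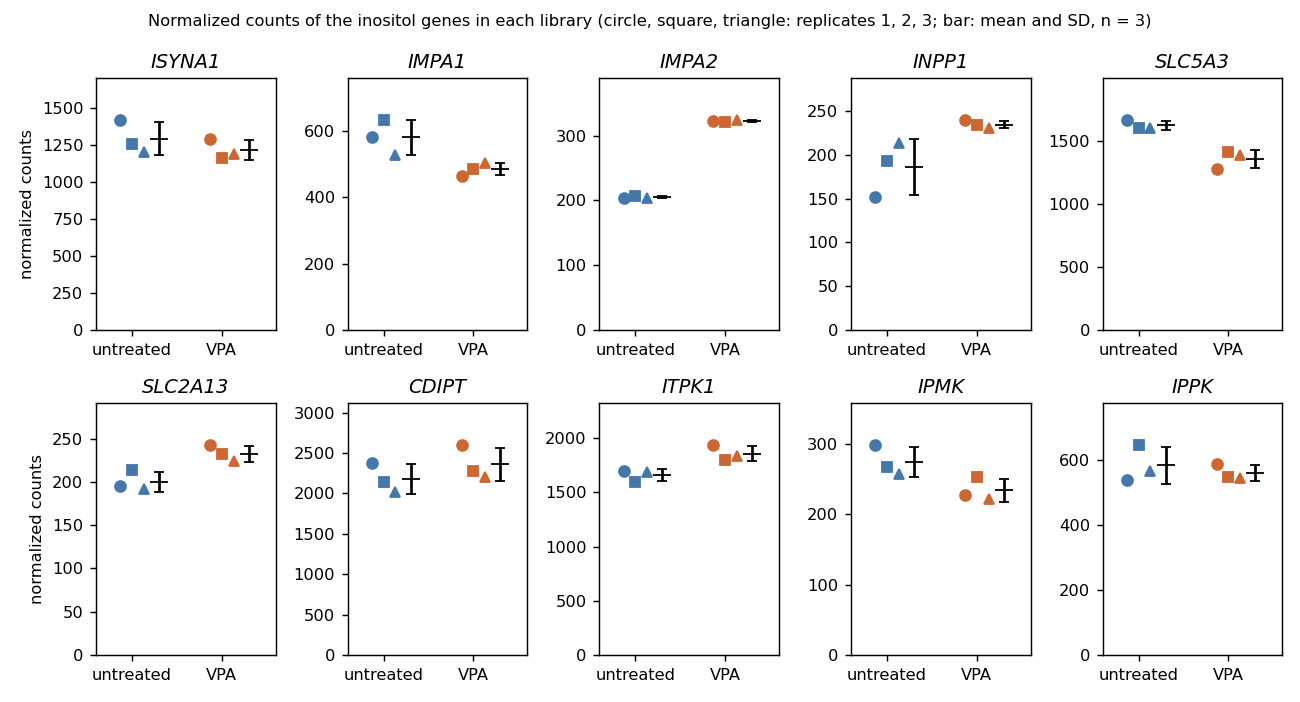
Normalized counts (y axes from 0) of the 10 inositol genes in the 3 untreated and 3 VPA-treated libraries, with circles, squares and triangles for replicates 1, 2 and 3 and a bar for the mean and SD (n = 3). The groups are apart in 7 of the 10 genes, most widely in IMPA2, and overlap in ISYNA1, CDIPT and IPPK.

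The direction of the lower genes rested on how the libraries were scaled. With TMM the median change over the tested genes was 0.0058 on the log2 scale, whereas library totals put it at 0.14 and the cytosolic ribosomal protein genes at 0.28. Relative to that median the changes were the same under every scaling tried, at -0.27 for IMPA1, -0.26 for SLC5A3 and -0.24 for IPMK (log2). With library totals SLC5A3 alone was still called lower, at -0.12 (adjusted p = 0.0326, edgeR), and scaled on ribosomal protein genes these 3 genes lay at 0.011, 0.015 and 0.041, none of them called. The higher genes IMPA2, INPP1, SLC2A13 and ITPK1 were called higher under each of the 5 scalings. Lower therefore means lower than the typical gene of the same library.

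**Figure D2:**
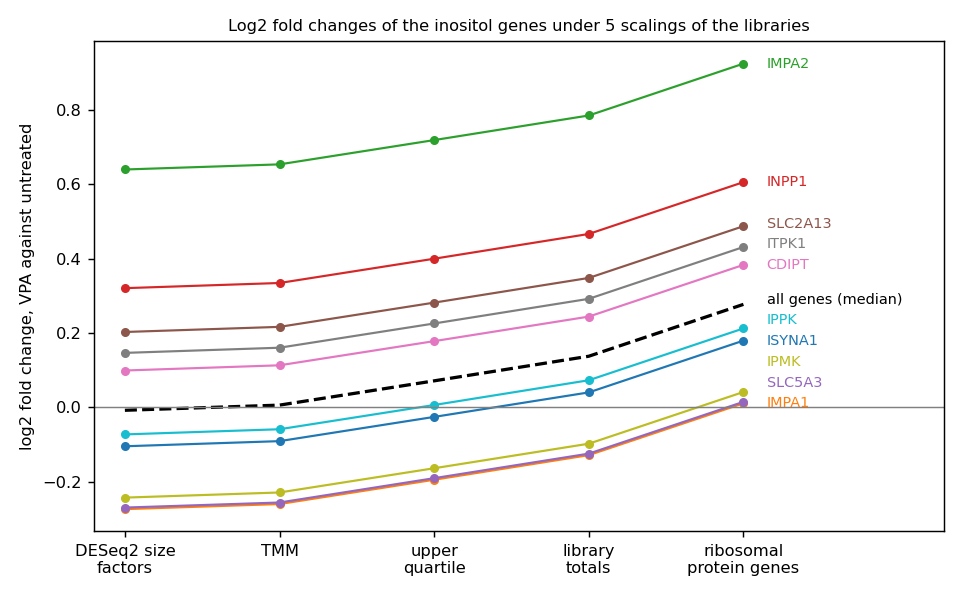
Log2 fold change of VPA-treated against untreated cells (y axis) for the 10 genes under 5 scalings of the libraries (x axis), with the median of all tested genes dashed. Each scaling shifts every gene by the same amount, and IMPA1, SLC5A3 and IPMK stay 0.24 to 0.27 below the median gene.

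ISYNA1 encodes inositol phosphate synthase, the enzyme that turns glucose phosphate into inositol phosphate and sets the rate of synthesis in the cell. Its span in GENCODE 44 (hg38) is 18434388 to 18438167 of chromosome 19, minus strand. Its normalized counts were 1414, 1257 and 1202.0 without VPA and 1289.8, 1163 and 1184 with VPA, so that the groups overlapped. The change was -0.09 (log2, SE 0.058), with a 95% interval from -0.21 to 0.03 (adjusted p = 0.181, edgeR), an interval that holds 0 and ends well inside the fold threshold. Leaving out 1 library moved it from -0.15 (without untreated replicate 3, called lower, adjusted p = 0.0392) to -0.027 (without untreated replicate 1, adjusted p = 0.689). It was above 0 with library totals, at 0.040, and with ribosomal protein scaling, at 0.18, where it was called higher (adjusted p = 0.0173). With the replicate number as a block, a pairing that the labels do not give, it was called lower (-0.09, adjusted p = 0.0382, edgeR). The 3′ end overlaps that of SSBP4 on the opposite strand, which was higher after VPA, with a log2 fold change of 0.36 (adjusted p = 0.000357, edgeR).

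IMPA2 and IMPA1 encode the inositol monophosphatases, paralogous enzymes that remove the last phosphate and release free inositol, and IMPA1 is the classical target of lithium. By TMM the paralogs moved in opposite directions, although the fall of IMPA1 was lost with 2 of the 4 other scalings. IMPA2, on chromosome 18 from 11981025 to 12030877, had 204.0, 207 and 204 normalized counts in untreated and 322, 322 and 324 in VPA-treated libraries. Every VPA-treated library was thus well above every untreated one. The log2 fold change of 0.65 (standard error 0.077), an increase by 57.3%, was the largest of the 10 genes in size (adjusted p = 1.95e-07, edgeR). Its libraries lay closer together, with an SD of 0.316% of the mean in VPA-treated cells, than the 5.46% that counting alone gives at this depth, so the standard error of the fit is the error to read. Leaving out each library gave 0.64 to 0.65.

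IMPA1, on chromosome 8, had 579.8, 631 and 528 normalized counts in untreated and 465, 484 and 503 in VPA-treated libraries. All VPA-treated values were below all untreated ones, the nearest pair being 503 and 528. VPA changed it by -0.26 on the log2 scale (SE 0.068, adjusted p = 0.00212, edgeR), a fall that was -0.13 and not called with library totals (adjusted p = 0.114) and was gone, at 0.011, with ribosomal protein scaling. No counted gene overlaps IMPA1 or IMPA2 in GENCODE 44.

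The ratio of the paralogs' raw counts within a library is free of any scaling. For each IMPA1 count there were 0.352, 0.328 and 0.386 IMPA2 counts without VPA, against 0.693, 0.664 and 0.644 with it. The means were 0.355 ± 0.0288 and 0.667 ± 0.0246 (SD over 3 libraries), so that the ratio was 1.88-fold higher after VPA, with no overlap between the groups. The separation follows from the normalized counts, where IMPA2 lay above and IMPA1 below in every VPA-treated library. A two-sided exact permutation test could therefore only give p = 0.10, the smallest that 3 libraries against 3 allow. The ratio was added after the values were seen. Per length of the transcript, IMPA1 was above IMPA2 in untreated cells, at 9.19 ± 0.818 against 7.55 ± 0.0737 CPM per kilobase (SD, n = 3), and below it in VPA-treated cells, at 7.67 ± 0.300 against 11.9 ± 0.0376. The order of the paralogs' levels was thus the opposite in the 2 groups, in each of the 6 libraries.

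INPP1 encodes inositol polyphosphate 1-phosphatase, the other lithium-sensitive enzyme of the recovery steps, which feeds the monophosphatases. Its normalized counts were 152, 193 and 214 in untreated libraries and 239.6, 234 and 231 in VPA-treated libraries. Untreated replicate 1 stood lowest, and the spread in untreated cells was 31.5 (SD, n = 3) against 4.46 after VPA. VPA changed it by 0.33 on the log2 scale (SE 0.10, adjusted p = 0.00700, edgeR), and without untreated replicate 1 it was 0.20 and did not pass (adjusted p = 0.0714). DESeq2 gave 0.31 and also missed the threshold (adjusted p = 0.0562). The ratio of INPP1 to IMPA1 counts in a library was 0.324 ± 0.0735 before and 0.486 ± 0.0283 after VPA (SD over 3 libraries), and the groups did not overlap (two-sided p = 0.10, again the lowest that the exact permutation test allows here). This separation too was fixed by the normalized counts, with INPP1 above and IMPA1 below in every VPA-treated library.

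INPP1 lies on chromosome 2 from 190343570 to 190371665 on the plus strand, and HIBCH, which starts on the opposite strand at 190344193, overlaps its first bases. HIBCH, an enzyme of valine breakdown, was higher as well, with a log2 fold change of 0.18 (adjusted p = 0.0108, edgeR). The strand setting of the counting is not given in the sources used here, so reads of the shared stretch could have gone to either gene or been set aside. The 250 bases before the RefSeq start of INPP1 (chr2:190343339-190343588, GRCh38.p14, plus strand) are shown because they lie within the span of HIBCH and serve as the region ahead of a gene that was higher. Capitals mark GGGCGG, the GC box, on either strand:
INPP1: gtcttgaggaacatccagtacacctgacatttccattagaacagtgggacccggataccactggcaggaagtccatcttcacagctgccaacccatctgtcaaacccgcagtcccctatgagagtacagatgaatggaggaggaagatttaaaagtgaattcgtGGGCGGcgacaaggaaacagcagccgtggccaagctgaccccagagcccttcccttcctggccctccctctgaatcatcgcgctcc

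**Figure D3:**
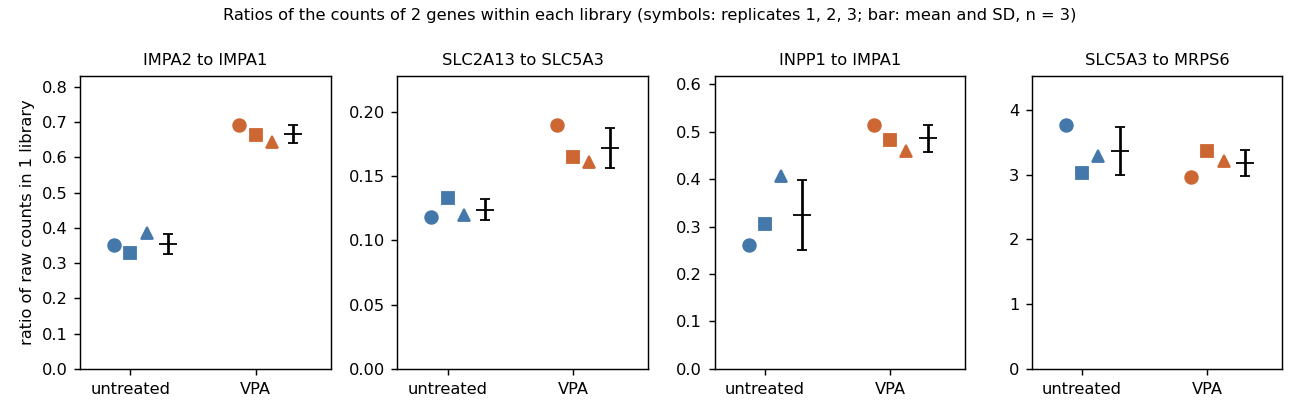
Ratios of the raw counts of 2 genes within each library (y axes from 0), by group, with symbols for replicates 1, 2 and 3 and a bar for the mean and SD (n = 3). IMPA2 to IMPA1, SLC2A13 to SLC5A3 and INPP1 to IMPA1 are higher in all VPA-treated libraries, and SLC5A3 to MRPS6 overlaps between the groups. The 3 separations follow from the normalized counts of the single genes.

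The inositol transporters also moved apart by TMM, with SLC5A3 lower except under ribosomal protein scaling. SLC5A3 encodes the sodium-coupled myo-inositol transporter, which cells raise to hold inositol as an osmolyte. Its normalized counts were 1661, 1602 and 1601 in untreated libraries and 1276, 1408 and 1387 in VPA-treated libraries, so that all VPA-treated values were lower. VPA changed it by -0.26 on the log2 scale (SE 0.048, adjusted p = 8.39e-05, edgeR), between -0.28 and -0.21 with each library left out, and 0.015 and not called with ribosomal protein scaling.

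SLC2A13 encodes the proton-coupled myo-inositol transporter, known mainly from brain. It had 196, 214 and 192 normalized counts in untreated and 242, 232 and 224 in VPA-treated libraries. The nearest values of the groups were 214 and 224. VPA changed it by 0.22 on the log2 scale (SE 0.086, adjusted p = 0.0325, edgeR), the least secure of the 4 increases. It did not pass without untreated replicate 1 (0.19, adjusted p = 0.0865), untreated replicate 3 (0.18, 0.118), VPA replicate 1 (0.19, 0.0972) or VPA replicate 2 (0.22, 0.0685), nor with DESeq2 (0.19, adjusted p = 0.226) or without a filter on low counts (0.19, adjusted p = 0.0863). Within a library, SLC2A13 had 0.124 ± 0.00839 counts for each SLC5A3 count before and 0.172 ± 0.0155 after VPA (SD over 3 libraries), 1.39-fold more, with no overlap (two-sided p = 0.10, again the lowest that the exact permutation test allows here). The lack of overlap was fixed by the normalized counts, with SLC2A13 above and SLC5A3 below in every VPA-treated library. For SLC2A13 itself this leaves the weak call as it was. Its span on chromosome 12, from 39755025 to 40106089, overlaps C12orf40 on the opposite strand, which had 1 count over the 6 libraries.

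In RefSeq SLC5A3 begins at the same base as MRPS6, which encodes a protein of the mitochondrial ribosome. SLC5A3 lies on chromosome 21 from 34073578 to 34106260 on the plus strand, in 2 exons, and in GENCODE 44 lies within the span of MRPS6 (34073224 to 34143034) on the same strand. MRPS6 had 486 ± 43.8 normalized counts without and 427 ± 7.68 with VPA (SD over 3 libraries) and was lower as well, by a log2 change of -0.19 (SE 0.070, adjusted p = 0.0244, edgeR), and it was not called with upper quartile (-0.12, adjusted p = 0.140) or library totals (-0.054) and was above 0 with ribosomal protein scaling (0.085). The SLC5A3 to MRPS6 ratio was 3.36 ± 0.373 without and 3.18 ± 0.199 with VPA (SD over 3 libraries), and the groups overlapped (p = 0.60, two-sided exact permutation test). Reads on exons that both genes use are usually set aside as ambiguous by this kind of counting, and the setting used here is not given.

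The 250 bases before the start of each transporter gene (RefSeq, GRCh38.p14) are shown because the first is the common start region of SLC5A3 and MRPS6, both lower by TMM and not by ribosomal protein scaling, and the second belongs to the transporter that was higher. They are chr21:34073328-34073577 on the plus strand and chr12:40106082-40106331 on the minus strand. Capitals again mark the GC box:
SLC5A3: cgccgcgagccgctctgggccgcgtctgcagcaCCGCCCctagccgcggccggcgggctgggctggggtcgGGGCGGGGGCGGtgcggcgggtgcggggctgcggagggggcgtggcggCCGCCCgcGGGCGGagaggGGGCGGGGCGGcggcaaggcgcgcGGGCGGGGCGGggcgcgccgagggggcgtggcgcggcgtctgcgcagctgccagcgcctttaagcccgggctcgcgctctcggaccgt
SLC2A13: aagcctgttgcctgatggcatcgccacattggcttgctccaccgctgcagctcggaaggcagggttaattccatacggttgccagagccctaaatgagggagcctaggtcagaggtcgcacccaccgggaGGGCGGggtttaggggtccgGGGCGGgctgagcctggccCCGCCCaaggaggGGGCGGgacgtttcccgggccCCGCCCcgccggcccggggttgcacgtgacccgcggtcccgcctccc

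Counting every position at which GGGCGG or its reverse complement begins, overlaps between them included, the GC box occurred 9 times before SLC5A3, 5 times before SLC2A13 and 1 time before INPP1. RefSeq windows were at hand for 8 of the 10 genes, IMPA1 and IMPA2 being those without, and 8 of their 10 windows held a GC box, against 42.5% of 34943 such windows over all genes. The bases G and C made up 84.8% of the SLC5A3 window, 70.0% of the SLC2A13 window and 54.4% of the INPP1 window, with a median of 58.0% over all genes. Searched on both strands, CCAAT was found before SLC2A13 and in 1 of the windows of ITPK1 (32.0% of all windows), CACGTG before SLC2A13 (6.32%), TGGAAA before INPP1 (18.0%), and TATAAA (10.8%) and TGACGTCA (1.63%) in none of the 10. Windows of higher and lower genes alike held GC boxes, IPMK with 3 and ITPK1 with 3 in 1 of its windows.

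CDIPT encodes phosphatidylinositol synthase, which joins inositol to CDP-diacylglycerol and so returns it to the membrane. It had the highest level of the 10 genes per length, at 63.2 ± 5.28 CPM per kilobase without and 68.4 ± 6.07 with VPA (SD, n = 3). Its normalized counts were 2381, 2139.6 and 2024 in untreated and 2596, 2284 and 2198 in VPA-treated libraries. The groups overlapped, although replicate 1 was the highest library of both groups and replicate 3 the lowest. The change was 0.11 (log2, SE 0.065), with a 95% interval from -0.03 to 0.25 (adjusted p = 0.145, edgeR). Leaving out 1 library raised it to 0.17 (without untreated replicate 1, adjusted p = 0.00683) or 0.16 (without VPA replicate 3, adjusted p = 0.0408), where it passed, and lowered it to 0.038 (without VPA replicate 1, adjusted p = 0.578) or 0.055 (without untreated replicate 3, adjusted p = 0.464). It also passed with upper quartile (0.18, adjusted p = 0.0209), library totals (0.24, adjusted p = 0.0101) and ribosomal protein scaling (0.38, adjusted p = 0.000255). With the replicate number as a block, a pairing that the labels do not give, it was called higher (0.11, adjusted p = 0.00211, edgeR).

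ITPK1, IPMK and IPPK phosphorylate inositol phosphates further, towards inositol hexakisphosphate and the pyrophosphates made from it. ITPK1, a kinase of inositol tris- and tetrakisphosphates, had 1697, 1593 and 1693 normalized counts in untreated and 1935, 1798 and 1835 in VPA-treated libraries. All VPA-treated libraries were higher, with a log2 change of 0.16 (SE 0.046, adjusted p = 0.00459, edgeR), an increase by 11.7% that passed with each library left out (adjusted p up to 0.0497). The gene lies on chromosome 14 from 92936914 to 93116320, and ITPK1-AS1, within it on the opposite strand, is listed at 0 in every library.

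IPMK, the inositol polyphosphate multikinase, which has roles in the nucleus as well, had 298, 268 and 257 normalized counts in untreated and 227, 253 and 222 in VPA-treated libraries. The groups came close, at 257 and 253. VPA changed it by -0.23 on the log2 scale (SE 0.086, adjusted p = 0.0241, edgeR), and it was not called without untreated replicate 1 (-0.17, adjusted p = 0.110), VPA replicate 1 (-0.21, adjusted p = 0.0632) or VPA replicate 3 (-0.19, adjusted p = 0.0942), nor with DESeq2 (-0.25, adjusted p = 0.0752), upper quartile (-0.16, adjusted p = 0.103) or library totals (-0.098, adjusted p = 0.347).

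IPPK, the kinase that makes inositol hexakisphosphate, had 536, 644 and 566 normalized counts in untreated and 586, 546 and 543 in VPA-treated libraries. The groups overlapped over most of their range. The change was -0.06 (log2, SE 0.068), with a 95% interval from -0.20 to 0.08 (adjusted p = 0.463, edgeR), and without untreated replicate 2, its highest library, it was 0.012. With ribosomal protein scaling it was 0.21 and called higher (adjusted p = 0.00929). On chromosome 9 its 3′ end overlaps CENPP on the opposite strand, which did not pass either (-0.07, adjusted p = 0.413).

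**Figure D4:**
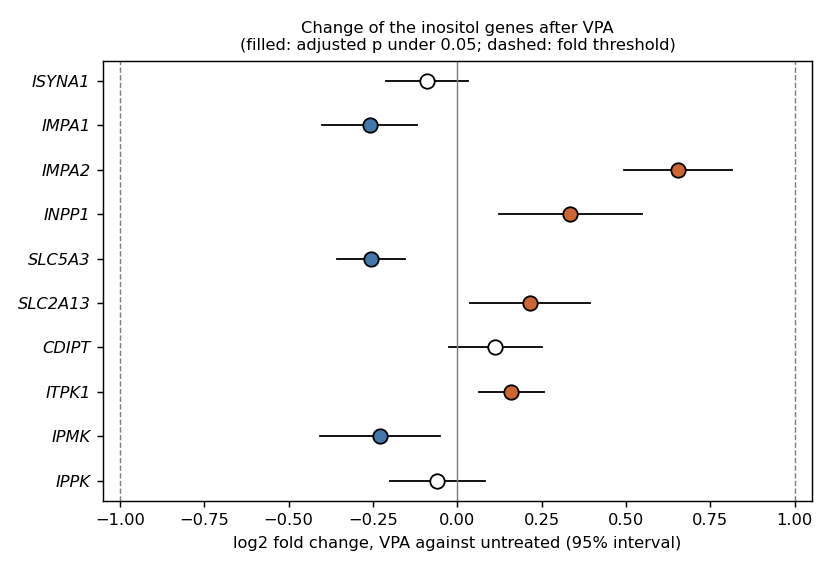
Log2 fold change of VPA-treated against untreated cells (x axis, points) with its 95% interval (lines) for the 10 genes, ordered as synthesis, recovery, uptake, return to the lipid and further phosphorylation. IMPA2 at 0.65 stands highest, and every interval ends short of the fold threshold of 1 (dashed).

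Per length of the transcript the 10 genes spanned from 1.48 ± 0.0849 (SLC2A13) to 63.2 ± 5.28 (CDIPT) CPM per kilobase in untreated cells (SD, n = 3). ISYNA1 came second at 30.6 ± 2.61 and ITPK1 next at 14.3 ± 0.508. Below IMPA1 followed IMPA2, SLC5A3 at 7.49 ± 0.158 and IPPK at 7.28 ± 0.695, and these neighbours overlapped between libraries, whereas INPP1 (4.87 ± 0.822) and IPMK (2.41 ± 0.186) stood apart. After VPA, SLC5A3 at 6.27 ± 0.327 overlapped INPP1 at 6.13 ± 0.116, and the other neighbours in the order did not overlap. CDIPT, ISYNA1 and ITPK1 led the order in both groups.

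The wider pathway was taken from 7 lists of 63 other genes, which include relatives of the lithium-sensitive phosphatases and genes of CDP-diacylglycerol synthesis. Most serve inositol phosphate and phosphoinositide metabolism, and 52 of the 63 were tested. Of these, 21 were higher and 19 lower after VPA and 12 did not pass, where 32.9% and 30.0% of all tested genes were called, with a median change of -0.02 (log2) against 0.0058 for all genes. Only PLCL1 and INPP4B reached the fold threshold, both upwards. Of the 21 increases, 12 were in the phospholipase C and inositol trisphosphate receptor lists.

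The phospholipase C list holds enzymes that release inositol trisphosphate from the membrane, and relatives such as PLCL1. Of its 12 tested genes 9 were higher and none lower, against 32.9% and 30.0% of all genes, with a median log2 fold change of 0.52. With DESeq2 size factors the calls were 8 higher and 0 lower (4908 and 4852 of all 15298 genes). With the replicate block they were 10 and 1 (35.0% and 33.3% of all genes). PLCL1, a relative without catalytic activity, rose from 55.3 ± 12.4 to 128 ± 15.2 normalized counts (SD over 3 libraries), or by 1.21 on the log2 scale (SE 0.15, adjusted p = 4.01e-07, edgeR). PLCE1, which responds to small GTPases, rose from 245 ± 12.7 to 426 ± 28.0 (log2 fold change 0.80, adjusted p = 1.02e-08, edgeR). All 3 inositol trisphosphate receptors, the calcium channels that this messenger opens, were higher, also under each of the 5 scalings. ITPR1 went from 334 ± 18.9 to 648 ± 28.9 normalized counts and ITPR3 from 1006 ± 57.3 to 1906 ± 31.8 (SD over 3 libraries), log2 fold changes of 0.95 and 0.92 (adjusted p = 4.95e-11 and 5.38e-13, edgeR). These values exceed that of IMPA2, the largest among the 10 genes.

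The enzymes that work on inositol phosphates and lipids gave a mixed picture. Of 7 tested inositol phosphate kinases outside the 10 genes 2 were higher and 3 lower, and of 14 tested polyphosphate phosphatases 3 were higher and 7 lower, against 32.9% and 30.0% of all genes, with medians of -0.08 and -0.10 that became 0.05 and 0.03 with library totals. Of the 18 listed phosphatases 3 had 0 counts in every library, namely OCRL, NUDT10 and NUDT11. The cause was not tested, and these zeros were not read as absence of expression. The kinase calls were 2 higher and 1 lower with library totals and 4 and 0 with ribosomal protein scaling, and the phosphatase calls 4 and 1, and 8 and 0. Of all 15298 tested genes 6713 were higher and 2372 lower with library totals, and 9250 and 854 with ribosomal protein scaling. ITPKA, which phosphorylates inositol trisphosphate, and PPIP5K1, a kinase of pyrophosphate synthesis, had log2 fold changes of 0.45 and 0.32 (adjusted p = 0.00500 and 0.000352, edgeR). INPP4B, a lipid phosphatase, rose from 33.4 ± 2.27 to 74.2 ± 9.75 normalized counts (SD over 3 libraries), or by 1.15 on the log2 scale (adjusted p = 3.77e-06), and INPP5F, another, rose by 0.37 (adjusted p = 6.32e-05, same test).

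Of the relatives of the lithium-sensitive phosphatases, BPNT1 was higher, at 0.24, and BPNT2 lower, at -0.32 (adjusted p = 0.000348 and 9.26e-07, edgeR), where BPNT2 was -0.052 and not called with ribosomal protein scaling (adjusted p = 0.296). FBP1 and FBP2 were too low to be tested. Of 13 tested genes for CDP-diacylglycerol synthesis and phosphoinositide kinases 3 were higher and 8 lower, against 32.9% and 30.0% of all genes. With library totals the calls were 3 and 2 (6713 and 2372 of all 15298 genes). With ribosomal protein scaling they were 7 and 0 (9250 and 854 of all genes). PIP5K1B went from 62.7 ± 6.10 to 121 ± 2.95 normalized counts (SD over 3 libraries), or by 0.95 on the log2 scale (adjusted p = 1.04e-06, edgeR). PI4KB, which makes the first phosphoinositide of the Golgi, was lower, at -0.36 (adjusted p = 5.91e-08, edgeR), which was -0.085 and not called with ribosomal protein scaling (adjusted p = 0.0524). SLC5A11, a further inositol transporter, had 6.28 to 14.7 normalized counts and a log2 change of 0.05 with a 95% interval from -0.68 to 0.77 (adjusted p = 0.915, edgeR). MIOX, which breaks inositol down, had 2 counts in all and could not be tested.

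**Figure D5:**
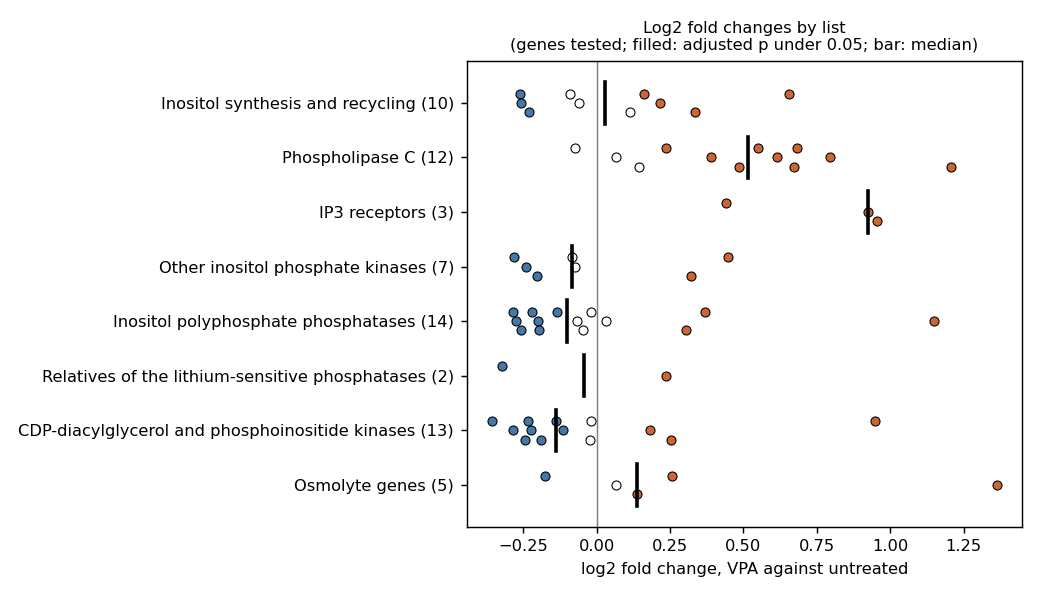
Log2 fold change of VPA-treated against untreated cells (x axis) for each tested gene of the 10 inositol genes, 6 pathway lists and the osmolyte genes (rows, number tested in brackets), filled where the adjusted p is under 0.05, with a bar at the median. The inositol trisphosphate receptors (median 0.92) and the genes of the phospholipase C list (0.52) lie to the right, and the 10 inositol genes (0.03) lie on both sides of 0.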

How the data were processed

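Gene expression was profiled by strand-specific mRNA sequencing of 3 untreated and 3 VPA-treated HEK293T libraries, grouped by their labels. Reads were cleaned with SOAPnuke, aligned to hg38 with STAR and counted with htseq-count by the authors (annotation and strand setting not given in the sources used here), who deposited raw counts per gene without normalization. Lines that summarise the counting, 5 per library, stayed out (reads off genes 6.80% to 7.69%, ambiguous 1.97% to 2.10%, not unique 2.81% to 2.92%). The methods give triplicate experiments and no statement on separate cultures, so p-values measure the spread between these libraries, which may be technical.

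The test was edgeR 4.0.16, run in R 4.3.3 (TMM, filterByExpr with a minimum of 10, robust quasi-likelihood fit, condition as the only term, prior count 0.125), with Benjamini-Hochberg adjustment over all 15298 tested genes. The 95% intervals use the fit's standard error. Levels per length use the canonical transcripts of GENCODE 44. The script was tested on simulated counts. Alternatives were DESeq2 1.42.0, 4 other scalings, 2 other filters, a prior count of 2, an adjusted p of 0.01, glmTreat, a replicate block and leaving out each library. Ratios within a library were added after the values were seen.

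The genes and lists were chosen with earlier results of these data known. Named were all 10 inositol genes, genes overlapping them, list genes past both thresholds, and per list the 2 called genes with the largest change. NFAT5, SLC38A2, SLC5A11, MIOX, FBP1, FBP2, OCRL, NUDT10, NUDT11, VIM and CD68 were named after their values were seen.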

Additional observations from a re-analysis of the deposited data

How the results depend on the processing

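IMPA2 and ITPK1 kept their direction and call under every alternative run for single genes. Of 160 comparisons of the 10 genes with an alternative, 126 kept direction and side of the threshold, 20 lost the call and 10 gained one. The sign changed in 9, of which 3 also lost a call and 2 gained one. The count of higher genes, 4, was 2 with DESeq2 and 7 with ribosomal protein scaling, and the count of lower genes, 3, fell to 1 by library totals and 0 by ribosomal protein scaling. The latter gave 35 higher and 0 lower pathway genes in place of 21 and 19, while library totals gave 5 lower. Of all 15298 tested genes, ribosomal protein scaling called 9250 higher and 854 lower, and library totals called 6713 and 2372. The median change of the 10 genes, 0.03, was 0.16 and 0.30 with these scalings. For scaling the cause lies in its construction, since all genes shift together. Above 0 were ISYNA1 (library totals 0.040, ribosomal proteins 0.18), IPPK (upper quartile 0.0061, library totals 0.073, ribosomal proteins 0.21) and, on ribosomal proteins, IMPA1 (0.011), SLC5A3 (0.015) and IPMK (0.041). With each library left out IPPK ranged from -0.12 to 0.012 (above 0 without untreated replicate 2) and the log2 SLC5A3 to MRPS6 difference from -0.15 to 0.010 (above 0 without untreated replicate 1). There were 3 to 5 higher and 2 to 4 lower inositol genes, 0 past the fold threshold, 19 to 20 higher and 15 to 20 lower pathway genes, and a median from -0.029 to 0.071. The cause of these changes with a library left out was not tested. The shares of all genes called in the fits without a library, and with DESeq2, are not given here. Those counts of calls are therefore not set against all genes. The share of higher genes among all called was 52.3% with TMM and 91.5% with ribosomal protein scaling.

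With the replicate number as a block there were 5 higher and 4 lower inositol genes (35.0% and 33.3% of all genes), 22 and 20 in the pathway lists and a median of 0.03, with CDIPT (0.11, adjusted p = 0.00211) and ISYNA1 (-0.09, adjusted p = 0.0382, edgeR) added. The block changed no other call of the 10 genes. The deviations of same-numbered libraries correlated over all tested genes with r = 0.116, 0.016 and 0.065, so the numbers were not taken to pair the libraries. Over 11065 genes averaging 100 counts or more, a limit chosen afterwards, r was 0.400, 0.142 and 0.325 and each library correlated best with its own number, a hint from the data that the labels do not give. Counting error limits IMPA2, INPP1, SLC2A13 and IPMK most, at 5.46% to 7.49% of the mean.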

Other observations

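Inositol is 1 of several osmolytes that cells take up or make when the medium becomes salty, and NFAT5 is the transcription factor that drives the genes for them. Of 5 listed genes beside SLC5A3, NFAT5 among them, 3 were higher after VPA and 1 was lower, where 62.9% of all tested genes were called. With library totals 4 were higher and 0 lower (6713 and 2372 of all 15298 genes). NFAT5 was the 1 that did not pass, with a log2 change of 0.07 (SE 0.053, adjusted p = 0.283, edgeR). SLC6A12, the betaine transporter, had 11.5 ± 2.76 normalized counts without and 29.7 ± 2.79 with VPA (SD over 3 libraries), higher by 1.36 on the log2 scale (adjusted p = 0.000105, edgeR). SLC6A6, the taurine transporter, rose from 1216 ± 22.0 to 1452 ± 58.0 (log2 fold change 0.26, adjusted p = 7.27e-05, edgeR), by TMM in the direction opposite to SLC5A3. SLC38A2 was the 1 listed gene that was lower, as SLC5A3 was, with a log2 change of -0.18 (adjusted p = 0.000482, edgeR). With ribosomal protein scaling SLC5A3 was 0.015 and not called. Among the markers of other cells, CD68 was the gene that could be tested and went from 36.5 ± 1.74 to 15.7 ± 3.98 normalized counts (log2 fold change -1.21, adjusted p = 9.97e-05, edgeR).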
